A study of Mus musculus with 4 samples.

Results

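Stromal cells that carry Cthrc1 and Col8a1 were followed in the ascending aorta of mice with an aortic dissection model, with and without paquinimod. The cells were chosen by measured values, their own RNA counts. A cell was taken as a Cthrc1/Col8a1 cell where its unique molecular identifiers (UMIs, each one captured RNA molecule) from Cthrc1, Col8a1, Col11a1 and Ddah1 summed to at least 3 and to more than each of 4 other gene sums. Those sums mark other stromal cells: A (led by Tcf21 and Hsd11b1), B (Cd248 and C1qtnf3), C (Fmod and Inmt) and D (Prss12 and Tnfrsf11b). Only gated stromal cells were considered, that is, barcodes with at least 200 genes, under 20% mitochondrial UMIs, at least 3 UMIs of Dcn, less than 0.3% of UMIs from Acta2 and Tagln, and no UMI of Ptprc. The rule gave 2429 cells of 14812 gated stromal cells and of 40565 barcodes kept in all. A further 9913 gated cells had one of the sums A to D strictly largest at 3 or more, and these are called the other stromal cells. All animals were male, wild-type and given BAPN, an inhibitor of lysyl oxidase cross-linking of collagen and elastin, at 1 g/kg/d in drinking water from 3 weeks of age for 4 weeks. The AD group (2 libraries) received no paquinimod, and the AD_ABR group (2 libraries) also received paquinimod, a quinoline-3-carboxamide that binds S100A9, at 10 mg/kg/d by the intragastric route. No library came from mice without BAPN. Nothing in the labels says whether the 2 libraries of a group came from separate animals or pools. The p-values therefore measure only the spread between these libraries.

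Activated stromal cells of an injured vessel leave the resting state, divide, migrate and lay down matrix. Cthrc1 encodes a secreted collagen triple helix repeat protein that is induced in the adventitia and neointima of injured arteries. Col8a1 encodes a short-chain collagen of the vessel wall that is raised in migrating and dividing vascular cells, Col11a1 a chain of a minor fibrillar collagen that nucleates fibrils, and Ddah1 an enzyme that clears asymmetric dimethylarginine, an inhibitor of nitric oxide synthase. Fibroblasts of a resting adventitia instead express genes such as Gsn, Clec3b and Pi16.

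The libraries held 76142840 and 99572011 UMIs in AD and 93575612 and 98946431 in AD_ABR. The Cthrc1/Col8a1 cells numbered 570 and 1193 in AD replicates 1 and 2, and 233 and 433 in AD_ABR replicates 1 and 2. Their summed UMIs were 13845863, 24391367, 5055396 and 6743675. They were deep cells, with a median of 21255.5, 18761, 21294 and 14561 UMIs, against 8710, 7961, 9240.5 and 8328 in the other stromal cells of the same libraries. AD replicate 1 stood apart in RNA of blood cells: S100a8, a neutrophil gene, had a UMI in 31.1% of its Cthrc1/Col8a1 cells and in at most 1.51% of those of the other libraries, and in 18.3% of its other stromal cells (5.47 and 6.42% with every cell thinned to 3000 UMIs). Of the Cthrc1/Col8a1 cells, 11.4 and 11.3% in AD and 6.01 and 7.85% in AD_ABR were marked as possible doublets and kept, against 4.58, 3.2, 0.98 and 4.26% of the other stromal cells. Pairs of libraries shared 22 to 38 barcodes, none of them a Cthrc1/Col8a1 cell in both.

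The genes of the rule set these cells apart by construction, and their levels are a description. In CPM (UMI counts scaled to a common library total, counts-per-million), Cthrc1 (ENSMUSG00000054196, chr15:39076932-39087121 on GRCm38, plus strand) stood at 758 and 962 in AD and at 2380 and 2220 in AD_ABR. The other stromal cells held 102 and 151 in AD and 71.5 and 134 in AD_ABR. Col8a1 (ENSMUSG00000068196, chr16:57624258-57754737, minus strand) ran the other way between the groups, at 532 and 563 CPM in AD and 336 and 299 in AD_ABR. Col11a1 was at 70.4, 70.2, 78.3 and 18.8 CPM and Ddah1 at 63.1, 111, 141 and 54.1, so that neither separated the groups. At the lower edge of the rule, 56 cells had a sum of exactly 3 (median depth 7000 UMIs), and 64 gated cells with a strictly largest sum of exactly 2 stayed outside (5084.5 UMIs). A further 131 cells inside the rule led the next sum by 1 UMI, and 125 gated cells with a sum of at least 3 were tied and stayed outside.

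Genes outside the rule describe the same cells. The 20 genes with the largest ratio over the other stromal cells, higher in all 4 libraries, were led by Fbn2, a fibrillin of growing tissue, with a mean log2 ratio of 2.44 (5 CPM added) and a range over libraries of 1.30 to 3.56. Tnc, the matricellular protein tenascin C, followed at 2.23, H19, an imprinted non-coding RNA, at 2.12 and Palld, an actin scaffold protein, at 2.06. P4ha3, a collagen prolyl hydroxylase subunit, stood at 1.91, the metalloprotease Adam12 at 1.80, the matricellular genes Postn, Thbs2 and Thbs1 at 1.75, 1.57 and 1.42, and the fibril-associated collagen gene Col12a1 at 1.44. Kif26b, Serpinb1a, Plac8, Fgf18, Cdk1, Glipr1, Fhl2, Basp1, Srpx2 and Adam19 made up the rest, between 1.33 and 1.94. Among the 4 other sums, the cells led by sum B (Cd248 and C1qtnf3) came nearest, with 335 CPM of Cthrc1, 985 of Postn and 118 of H19, against 1581, 1618 and 137 in the Cthrc1/Col8a1 cells (means over 4 libraries). Basp1, a membrane-bound signalling protein, was at 133 CPM in the cells led by sum B and at 119 in the Cthrc1/Col8a1 cells. Genes lower in all 4 libraries included Gsn, an actin-severing protein of quiescent fibroblasts, at a mean log2 ratio of -2.57. The hedgehog inhibitor Hhip was at -3.37 and the retinol carrier Rbp4 at -3.13, and these 3 were chosen after their values were seen. Of the other resting genes named above, Clec3b was lower in each library. Pi16 stood at 248 and 309 CPM in AD and 1600 and 973 in AD_ABR. The other stromal cells held 921 and 1660 and then 1050 and 1190 CPM of Pi16, so it was higher in the Cthrc1/Col8a1 cells of AD_ABR replicate 1. Since the same cells were used to define the class, no test was made of these ratios.

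**Figure D1:**
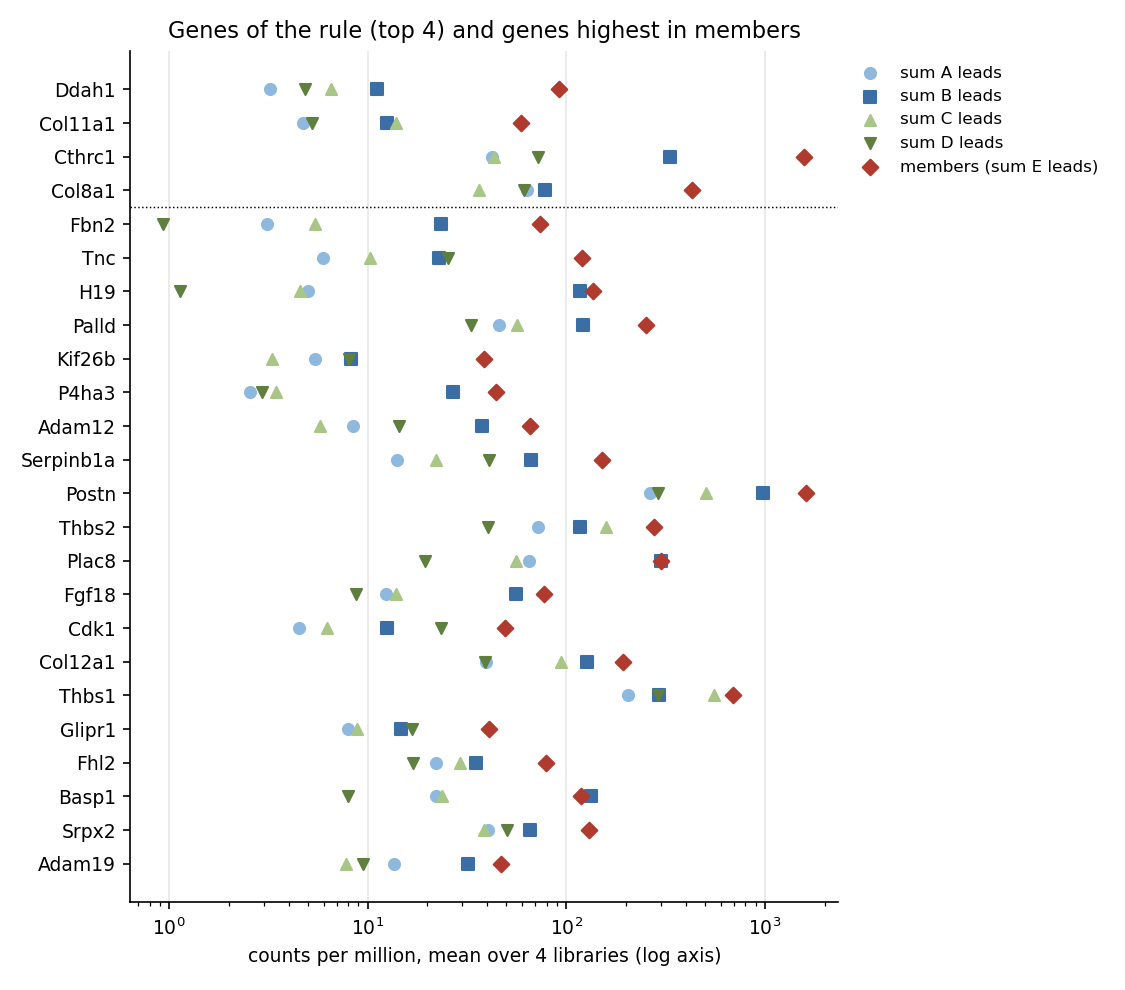
Level of the 4 genes of the rule (above the dotted line) and of the 20 genes highest in the Cthrc1/Col8a1 cells (red diamonds, named members in the key), against the cells led by sums A to D; the x axis is CPM on a log scale, mean over 4 libraries. Cthrc1 averaged 1581 in the red class and 335 in the cells led by sum B.

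The label of these cells was checked against markers of the types the gate could hold. All 10 fibroblast markers had a UMI in at least 10% of the cells, with Pdgfra in 71.6 to 85.8% and Col1a1 in 97.4 to 99.4% of cells in each library. Of 12 markers of activated fibroblasts, 11 were past the same level, and together they reached 4960 and 5670 CPM in AD, 8040 and 7610 in AD_ABR, against 2110 to 3280 in the other stromal cells. The exception was Grem1, at 0 to 11.6 CPM. Modulated smooth muscle markers (10 genes) summed to 7780 and 7630 CPM in AD and 7620 and 6820 in AD_ABR, with 9 past the same level. The other stromal cells held 8080, 6370, 5210 and 5820. That list shares Fn1 and Lum with the lists above. Valve interstitial markers (9 genes) summed to 655, 610, 571 and 683 CPM, against 788, 668, 430 and 427. Whether the cells belong to these 2 types was not tested. The 12 contractile smooth muscle markers summed to 265 to 331 CPM, against 280 to 500 in the other stromal cells, with Myh11 at 11.3 to 27.3. The gate limited Acta2 and Tagln and allowed no Ptprc UMI, so low smooth muscle and leukocyte markers were partly set in advance. Within that limit Acta2 stood at 588 and 608 CPM in AD and 377 and 327 in AD_ABR, against 280, 289, 398 and 331 in the other stromal cells. Tagln stood at 290, 295, 286 and 200 against 144, 147, 187 and 143. Macrophage markers (10 genes) summed to 62.5 to 175 CPM, T and NK cell markers (8 genes) to 2.08 to 9.03, with Cd8a at 0 in every library, and Schwann cell markers (7 genes) to 10.2 to 59.3, with Sox10 at 0 in 3 of 4 libraries. Pericyte markers (8 genes) summed to 205 to 259 CPM, against 347 to 513 in the other stromal cells. Tendon and ligament markers (6 genes) summed to 121 to 199 CPM, against 212 to 436. Endothelial markers (9 genes) summed to 263, 118, 254 and 248 CPM, against 66.6, 113, 220 and 131 in the other stromal cells. Chondrocyte markers (13 genes) summed to 1160, 346, 336 and 270 CPM, against 391, 329, 254 and 210. Both sums were higher than in the other stromal cells in each library. At least 3 UMIs of the chondrocyte list, which shares Comp with the activated fibroblast list, were seen in 49.5, 45.9, 54.5 and 30.9% of the Cthrc1/Col8a1 cells. Whether the cells belong to these types was not tested.

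The class held cells led by different genes of the rule. Cthrc1 gave the most UMIs of the sum in 55.8 and 62.6% of the AD cells, against 85.8 and 90.8% of the AD_ABR cells, and Col8a1 in 36.5 and 33.4% in AD (208 and 398 cells) and in 9.87 and 6.93% in AD_ABR (23 and 30 cells). Lrrc17, a secreted leucine-rich repeat protein, was higher in cells led by Cthrc1. It was at 149, 254, 119 and 204 CPM in them, in library order AD 1, AD 2, AD_ABR 1 and AD_ABR 2, against 54.6, 39.8, 15.4 and 44.0 in cells led by Col8a1. The Wnt ligand gene Wnt2 was at 38.1, 42.7, 27.3 and 44.8 CPM against 11.5, 8.66, 7.69 and 5.18. The Col8a1 cells carried Cytl1, a small secreted protein of cartilage, at 1446, 233, 994 and 3608 CPM against 36.5, 23.7, 70.2 and 32.7, and Serpine2, an inhibitor of thrombin and plasminogen activators, at 437, 608, 187 and 520 against 16.2, 63.0, 29.3 and 52.5. The endothelial list summed to 440, 175, 382 and 1970 CPM in the Col8a1 cells and to 78.9, 46.5, 88.2 and 67.9 in the Cthrc1 cells. The chondrocyte list summed to 3250, 840, 415 and 1250 CPM against 121, 157, 304 and 188, with Col2a1, the main cartilage collagen, at 2340 CPM in the Col8a1 cells of AD replicate 1. Both sums were higher in the Col8a1 cells in all 4 libraries. The activated fibroblast list summed to 4650, 5560, 8440 and 7910 CPM in the Cthrc1 cells. In the Col8a1 cells it summed to 5780, 6130, 5230 and 3760, higher in AD and lower in AD_ABR. The fibroblast list summed to 21200, 29900, 42000 and 40700 CPM in the Cthrc1 cells and to 28800, 30300, 30800 and 16700 in the Col8a1 cells. In the 30 Col8a1 cells of AD_ABR replicate 2, Postn was at 347 CPM and Pdgfra had a UMI in 36.7%, so that the label is weaker there. Col2a1 had a UMI in 16.8, 2.26, 0 and 16.7% of the Col8a1 cells and Cdh5, an endothelial cadherin, in 9.62, 3.52, 8.7 and 30%, each a minority. Other genes of the chondrocyte list were seen more widely, Sox9, a transcription factor of cartilage, in up to 60.9% and Comp, a cartilage matrix protein, in up to 59.3% of cells in a library. Whether the class held doublets or cells of another type here was not tested. The genes of this paragraph were chosen after their values were seen, and no test was made.

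The Cthrc1/Col8a1 cells took a larger share of the gated stromal cells in AD than in AD_ABR. In AD the share came to 23.6% (95% exact binomial interval 21.9 to 25.3) and 27.8% (26.5 to 29.2), and in AD_ABR to 7.15% (6.29 to 8.09) and 8.92% (8.13 to 9.75), the intervals covering counting error only. The group means were 25.7% ± 3.0 (SD, n = 2) and 8.04% ± 1.25 (SD, n = 2), a 3.2-fold difference, with no overlap between the groups. An exact two-sided permutation test over libraries gave p = 0.33, the smallest value that 2 against 2 allows. With every cell thinned to 3000 UMIs the shares were 12.5, 19.7, 6.61 and 7.09%, a 2.35-fold difference. Since the genes of the rule themselves differed between the groups, the share is a description of how many cells met the rule. Cells led by Col8a1 made 8.61 and 9.29% of gated cells in AD and 0.706 and 0.618% in AD_ABR (13.5-fold), and cells led by Cthrc1 made 13.2 and 17.4% against 6.14 and 8.09% (2.15-fold).

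Dividing cells were part of the class in AD. At least 3 UMIs of 6 proliferation genes (Mki67, Top2a, Cdk1, Ccnb1, Ube2c, Birc5) were seen in 37.7 and 26.9% of the Cthrc1/Col8a1 cells of AD, against 5.15 and 1.39% of those of AD_ABR. The shares in the other stromal cells were 8.28 and 1.54% in AD and 0.49 and 0.351% in AD_ABR. Among cells led by Cthrc1 they were 55.7, 35.5, 5.5 and 1.02%, and among cells led by Col8a1 13, 11.6, 4.35 and 6.67%. At a fixed depth of 3000 UMIs per cell, any UMI of these genes was seen in 36.0, 25.8, 5.6 and 4.92% of the Cthrc1/Col8a1 cells (3, 13, 1 and 6 shallower cells left out) and in 10.7, 4.75, 1.23 and 1.62% of the others (30, 66, 100 and 125 left out); without thinning the values in the Cthrc1/Col8a1 cells were 56.1, 45.6, 19.3 and 15.2%.

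**Figure D2:**
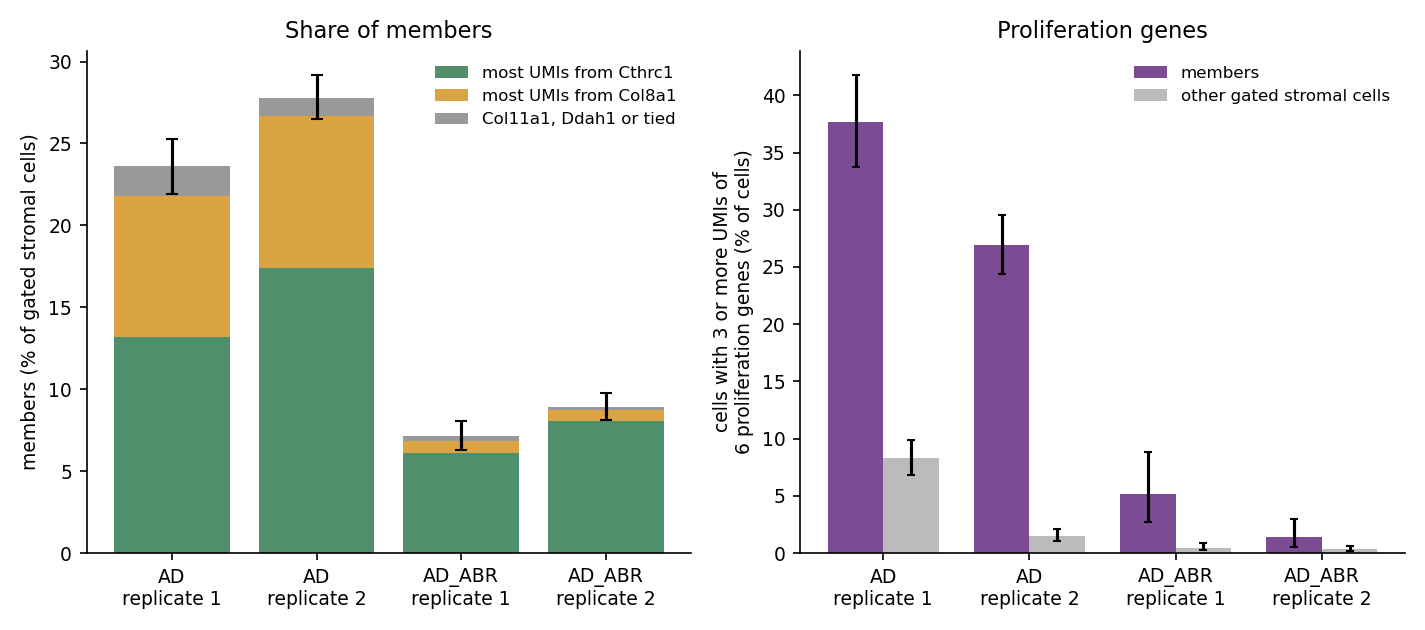
Left, Cthrc1/Col8a1 cells as a percentage of gated stromal cells in each library, divided by the gene with the most UMIs of the sum; right, percentage of cells with 3 or more UMIs of 6 proliferation genes in these cells (members) and in the other stromal cells. Bars are single libraries and error bars are 95% exact binomial intervals; both AD libraries (23.6 and 27.8% on the left) stand above both AD_ABR libraries (7.15 and 8.92%).

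Levels were then compared between AD_ABR and AD within the Cthrc1/Col8a1 cells, with UMI counts summed per library and tested by edgeR's quasi-likelihood test. Of 13892 genes tested, 966 rose (6.95%) and 1175 fell (8.46%) at a Benjamini-Hochberg adjusted p under 0.05, and the median log2 fold change over all genes was 0.0042. Both AD_ABR libraries lay above both AD libraries in CPM for 28.6% of the genes and below them for 36.4%, so that groups that do not overlap were common. Against 2141 calls (15.4%) with all libraries, 1092 were made without AD replicate 1, 1326 without AD_ABR replicate 1 and 734 without AD_ABR replicate 2. In a sum over cells, a change in the make-up of the class and a change within each cell cannot be told apart. The fit was therefore repeated on the 250, 649, 188 and 367 cells with no UMI of the 6 proliferation genes, an alternative added after the data were seen. In this smaller set, where the part of cell number in the count of calls was not tested, 128 of 12099 genes rose (1.06%) and 213 fell (1.76%). Of these 341 genes (2.82%), 284 were also called in all the cells, 83.3% of the smaller list and 13.3% of the larger, and all 284 had the same direction. Among cells led by Cthrc1 alone, 1162 of 13142 genes rose (8.84%) and 1419 fell (10.8%), and among the 208, 398, 23 and 30 cells led by Col8a1 edgeR called 1 of 10206 genes (0.0098%), with 1112 at an unadjusted p under 0.05.

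Cell division genes fell. Among 30 cell cycle genes 23 had fallen and Cdkn1a had risen (median log2 fold change -2.07), and 11 of the 12 named genes that fell belong to mitosis or its control. Birc5, the chromosomal passenger protein survivin (chr11:117849251-117855743, plus strand), stood at 159 and 149 CPM in AD and at 11.3 and 9.94 in AD_ABR, a log2 fold change of -3.80 (SE 0.153, adjusted p = 0.000639 by edgeR). Both AD libraries were far above both AD_ABR libraries. Tpx2, a spindle assembly factor, went from 92.2 and 88.0 to 5.93 and 4.75 CPM. The kinetochore genes Cenpe, Cenpf and Spc24 stood at 61.5 to 94.4 CPM in AD and at 2.67 to 7.71 in AD_ABR, and the spindle gene Dlgap5 at 23.0 and 18.9 against 0.593 and 0.593. Cdc20, an activator of the anaphase-promoting complex, stood at 61.2 and 50.3 CPM in AD and 4.15 in each AD_ABR library. Ccna2 (cyclin A2), Ccnb2 (cyclin B2), Cenpa (the histone H3 variant of the centromere) and Cdca8 (borealin) fell by 4.18, 2.94, 3.03 and 3.47 on the log2 scale. Replication genes fell by less, among them Mcm2, a subunit of the replicative helicase, by 2.13 and Rrm2, a subunit of ribonucleotide reductase, by 2.08. Cdkn1a, the cyclin-dependent kinase inhibitor p21, was the gene that rose, from 183 and 183 to 276 and 442 CPM. In the cells without a proliferation UMI, from which 6 of the 30 genes are absent by construction, 17 could be tested and edgeR called none, with 1 higher and 3 lower at an unadjusted p under 0.05. Since dividing cells were left out of this set, that outcome was largely fixed by the choice of cells. Spc24 was lower there too, at a log2 fold change of -3.06 (adjusted p = 0.0234). In the other stromal cells edgeR called none of the 30 at an adjusted p under 0.05, with 18 lower at an unadjusted p under 0.05, and DESeq2 called 18, all lower.

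Mitotic genes share promoter elements, and the promoters of 3 of the named genes are shown for that reason. The cell cycle genes homology region (CHR, searched as TTTGAA) is bound by the complexes that silence these genes in resting cells, and CCAAT boxes are bound by NF-Y. Each sequence is from RefSeq on GRCm38.p6, 5′ to 3′ from 250 bases before to 50 after the gene's start, with TTTGAA and CCAAT on either strand in capitals:
Ccnb2 (chr9:70421505-70421804, minus strand): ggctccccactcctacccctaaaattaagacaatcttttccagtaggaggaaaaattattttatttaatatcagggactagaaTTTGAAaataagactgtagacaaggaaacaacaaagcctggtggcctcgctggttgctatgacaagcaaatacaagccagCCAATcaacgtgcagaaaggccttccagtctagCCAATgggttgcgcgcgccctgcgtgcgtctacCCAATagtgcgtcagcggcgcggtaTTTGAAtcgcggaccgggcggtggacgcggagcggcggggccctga
Cdc20 (chr4:118437294-118437593, minus strand): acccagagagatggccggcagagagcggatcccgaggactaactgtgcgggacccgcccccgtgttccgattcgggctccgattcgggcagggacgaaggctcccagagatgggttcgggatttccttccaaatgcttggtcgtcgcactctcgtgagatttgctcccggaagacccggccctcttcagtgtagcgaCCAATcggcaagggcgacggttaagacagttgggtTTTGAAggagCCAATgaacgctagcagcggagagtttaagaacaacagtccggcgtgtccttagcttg
Cenpa (chr5:30666636-30666935, plus strand): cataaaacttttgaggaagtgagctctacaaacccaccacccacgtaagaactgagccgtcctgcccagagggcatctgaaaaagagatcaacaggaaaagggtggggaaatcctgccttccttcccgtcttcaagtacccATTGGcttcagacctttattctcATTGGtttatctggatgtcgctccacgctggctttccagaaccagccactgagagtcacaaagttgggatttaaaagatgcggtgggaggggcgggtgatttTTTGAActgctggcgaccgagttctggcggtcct
The 2 kinds of match do not overlap in these windows. Promoters were found for 19 of the 23 cell cycle genes that fell. CHR letters were present in 10 of them (52.6%) and in 18.1% of 27025 promoters of the same length, CCAAT in 16 (84.2%) against 37.9%, and an E2F motif searched as TTTNGCGC in 3 (15.8%) against 1.38%. A match describes the letters in the window and is not a measured site. Cell cycle genes that did not fall were not compared, so these shares describe the list and not the change.

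The 12 named genes that rose were of several kinds. Clec3b, which encodes tetranectin, a plasminogen-binding protein of resting adventitial fibroblasts (chr9:123150946-123157432, plus strand), went from 122 and 164 CPM in AD to 750 and 930 in AD_ABR, a log2 fold change of 2.61 (SE 0.213, adjusted p = 0.00228). The other stromal cells stood at 621 and 1080 CPM in AD and 935 and 1270 in AD_ABR. Dpep1, a membrane dipeptidase (chr8:123186242-123201812), rose from 37.8 and 47.7 to 203 and 207 CPM, and Scara5, a ferritin receptor, from 26.3 and 33.9 to 152 and 134. Sema3c, a secreted semaphorin, rose from 33.1 and 29.8 to 145 and 116 CPM. Fgf16 rose from 2.46 and 1.89 to 16.6 and 20.9, a log2 fold change of 3.19 from low levels. Nox4, an NADPH oxidase that makes hydrogen peroxide, rose from 53.8 and 59.2 to 168 and 161 CPM. Rin2, Il17d, Pcsk6 (a proprotein convertase), Htra3 (a secreted serine protease), Pmp22 and Prnp (the prion protein) rose by 1.47 to 1.92 on the log2 scale. In the other stromal cells Dpep1 stood at 120 and 225 CPM in AD and 516 and 545 in AD_ABR, and Fgf16 passed there too (log2 fold change 1.27, edgeR adjusted p = 0.0453). The difference between the populations did not pass for Dpep1, Sema3c, Pcsk6 and Htra3 (adjusted p = 0.162, 0.148, 0.0891 and 0.0883). It passed for the other named genes that rose. In the cells without a proliferation UMI, Htra3 was at a log2 fold change of 0.906 with an adjusted p = 0.173, and the other 11 passed the threshold in the same direction.

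**Figure D3:**
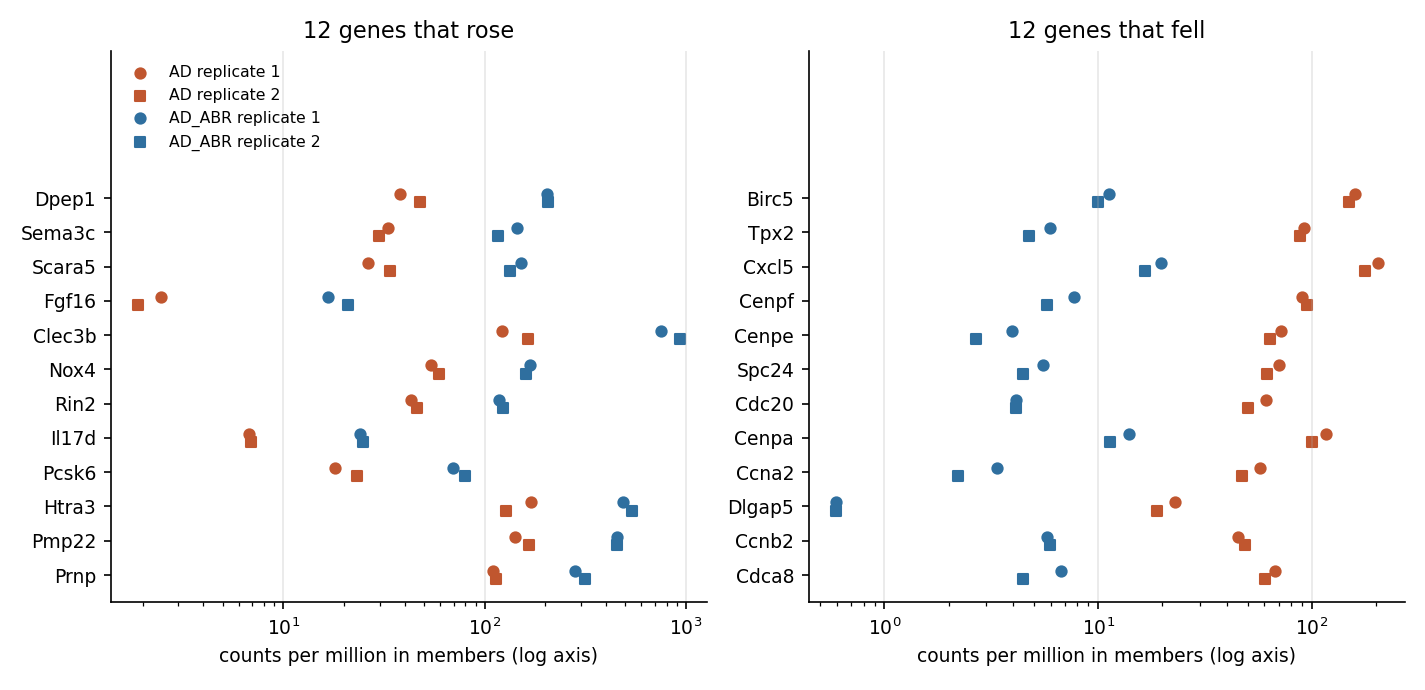
Level in the Cthrc1/Col8a1 cells of each library, in CPM on a log axis, for the 12 named genes that rose (left) and the 12 that fell (right) in AD_ABR (blue) against AD (orange); circles are replicate 1 and squares replicate 2. For every gene the 2 groups do not overlap, which the choice of named genes required. Over all genes tested, both AD_ABR libraries lay above both AD libraries for 28.6% and below them for 36.4%. Birc5 stood at 159 and 149 in AD against 11.3 and 9.94 in AD_ABR.

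Inflammatory genes fell in the Cthrc1/Col8a1 cells. NF-kB is a transcription factor family that is activated by cytokines and pattern receptors, and its targets include chemokines and its own inhibitors. Of 29 NF-kB targets and regulators, 13 fell and none rose at an adjusted p under 0.05 by edgeR, with none higher at an unadjusted p under 0.05 in the cells without a proliferation UMI. The median log2 fold change was -0.68, against 0.0042 over all genes. Tnfaip3, the inhibitor A20, stood at 199 and 186 CPM in AD and 45.3 and 61.4 in AD_ABR, a log2 fold change of -1.78 (SE 0.171, adjusted p = 0.00352). The inhibitor gene Nfkbia fell from 1210 and 1250 to 614 and 773 CPM, the subunit genes Nfkb1 and Nfkb2 by 1.16 and 0.75 on the log2 scale, and Vcam1, a leukocyte adhesion receptor, from 500 and 783 to 318 and 294 CPM. Among cells without a proliferation UMI 13 of 29 fell, and among the other stromal cells 6 of 29 by edgeR, with 21 lower at an unadjusted p under 0.05 and 16 called lower by DESeq2. The list's median log2 fold change there was -0.67, close to the -0.68 of the Cthrc1/Col8a1 cells. The count was 6 without AD_ABR replicate 1 and 6 without AD_ABR replicate 2.

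Cytokine and chemokine genes, of which 37 were tested, included 18 that fell and 2 that rose (median log2 fold change -1.40). Cxcl5, a neutrophil chemokine (chr5:90759360-90761624), went from 203 and 177 CPM to 19.6 and 16.5, a log2 fold change of -3.34 (SE 0.164, adjusted p = 0.000645). It fell in the other stromal cells too, from 92.0 and 59.7 to 5.77 and 3.93 CPM (log2 fold change -3.89, edgeR adjusted p = 0.0175). Cxcl2, another neutrophil chemokine, stood at 807 and 992 CPM in AD and at 264 and 298 in AD_ABR, and Ccl2, a monocyte chemokine, at 1310 and 1550 against 500 and 667. Lif, a cytokine of the interleukin 6 family, went from 57.5 and 63.4 to 9.89 and 4.89 CPM, and Il33, an alarmin of stromal nuclei, from 352 and 379 to 158 and 235. Cxcl1 was at 1690, 2510, 1410 and 1830 CPM and Il6 at 166, 214, 130 and 79.5, and neither passed the threshold. The 2 genes that rose encode decoy receptors of chemokines, Ackr3 (144 and 124 to 287 and 308 CPM) and Ackr4 (2.24 and 1.97 to 5.14 and 4.75). In the cells without a proliferation UMI 9 of 34 fell and 1 rose, in the other stromal cells 9 of 37 fell by edgeR (23 lower at an unadjusted p under 0.05, 18 by DESeq2, median log2 fold change -1.44), and the falls in the Cthrc1/Col8a1 cells numbered 12 without AD replicate 1 and 11 without AD_ABR replicate 2. Neutrophil markers (8 genes) summed to 89.8 and 9.1 CPM in the Cthrc1/Col8a1 cells of AD and to 0.989 and 0.89 in AD_ABR. In barcodes with a Ptprc UMI (leukocytes), Cxcl5 was at 11.1 CPM in AD and 2.4 in AD_ABR, below the AD stromal cells. Cxcl2 was at 3270 and 4250 CPM in those leukocytes and Tnf at 446 and 322, both above the stromal cells, where Tnf fell from 7.58 and 4.92 to 0.791 and 2.22. The part of leukocyte RNA in these changes was not tested.

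The promoters of Nfkbia and Cxcl2, genes of the 2 lists, are shown for the NF-kB motif (the kB consensus on either strand, in capitals; same source and window):
Nfkbia (chr12:55492598-55492897, minus strand): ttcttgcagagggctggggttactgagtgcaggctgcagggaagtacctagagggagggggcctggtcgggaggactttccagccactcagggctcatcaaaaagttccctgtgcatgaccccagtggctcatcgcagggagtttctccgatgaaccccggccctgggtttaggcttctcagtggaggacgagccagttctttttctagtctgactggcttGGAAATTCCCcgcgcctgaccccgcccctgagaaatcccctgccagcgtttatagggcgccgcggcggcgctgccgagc
Cxcl2 (chr5:90903649-90903948, plus strand): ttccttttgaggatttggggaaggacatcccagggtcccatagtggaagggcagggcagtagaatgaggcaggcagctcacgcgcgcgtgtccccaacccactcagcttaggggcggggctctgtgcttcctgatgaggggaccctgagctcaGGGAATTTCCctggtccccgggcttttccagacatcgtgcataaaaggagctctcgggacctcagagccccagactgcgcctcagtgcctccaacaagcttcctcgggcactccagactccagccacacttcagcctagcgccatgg
Promoters were found for 9 of the 13 fallen genes of the NF-kB list and for 13 of the 18 fallen cytokine genes. The motif was present in 5 of the 9 (55.6%) and in 4 of the 13 (30.8%), against 1.17% of all 27025 promoters. The first list was made of NF-kB targets and regulators, and list genes that did not fall were not compared. These shares therefore describe the lists and not the change. TEAD (GGAATG) and AP-1 (TGANTCA) letters were present in 1 and 2 of the 9 promoters (11.1 and 22.2%) and in 4 and 3 of the 13 (30.8 and 23.1%), against 14.6 and 7.93% of all.

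Elastic fibre genes rose. Elastic fibres consist of elastin on a scaffold of fibrillins and microfibril-associated proteins, with fibulins and latent TGF-beta binding proteins guiding assembly. Of 17 elastic fibre genes, 11 rose and 1 fell, and their median log2 fold change was 0.92. Mfap4, a microfibril-associated protein, went from 326 and 557 CPM in AD to 2290 and 2510 in AD_ABR, a log2 fold change of 2.50 (SE 0.284, adjusted p = 0.00641). Eln, elastin itself, rose from 2580 and 3530 to 8310 and 7520 CPM, Fbln5 (fibulin 5) from 337 and 479 to 1130 and 1110, Fbn1 (fibrillin 1) from 854 and 848 to 1550 and 1540, and Mfap5 from 1440 and 1890 to 4500 and 4970. Emilin1 fell from 185 and 169 to 96.9 and 71.3. In the cells without a proliferation UMI 4 of the 17 rose (Mfap4, Mfap2, Mfap5 and Fbln1) and 1 fell, with Eln at a log2 fold change of 0.55 and an adjusted p = 0.124. In the other stromal cells edgeR called none of the 17, with 4 higher and 2 lower at an unadjusted p under 0.05, and DESeq2 called 4, all higher.

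Of 10 fibrillar collagen genes 2 rose and 1 fell. Col3a1 rose from 10500 and 14300 to 23100 and 24500 CPM, Col5a1 from 698 and 688 to 1020 and 1030, and Col27a1 fell from 55.5 and 69.7 to 21.2 and 25.7. Col1a1 (9020, 10900, 12800 and 11500 CPM) and Col1a2 (9780, 13700, 15400 and 14600) did not pass the threshold. Of the 10, none rose and 2 fell without AD_ABR replicate 2, and 3 rose and 3 fell without AD replicate 2. Among cells without a proliferation UMI edgeR called none of 9 higher and 1 lower, with 2 higher at an unadjusted p under 0.05. Of 30 genes of collagen processing and cross-linking, 5 rose and 4 fell. These numbers were 3 and 3 without AD replicate 1, 2 and 2 without AD_ABR replicate 1 and 1 and 1 without AD_ABR replicate 2, and 0 and 1 by edgeR among cells without a proliferation UMI (6 higher and 10 lower at an unadjusted p under 0.05). Loxl1, an elastin cross-linking enzyme, rose by 0.62 on the log2 scale and Sparc, a collagen-binding chaperone, by 0.91, and Tgm2, a transglutaminase, fell by 1.07. Lox, the main lysyl oxidase and the target of BAPN, was at 805, 986, 1660 and 1070 CPM and did not pass. Of 23 matricellular genes 6 rose and 1 fell. Spp1 (osteopontin) went from 1250 and 783 CPM to 15.0 and 26.2, a log2 fold change of -5.54 (SE 0.363, adjusted p = 0.00206), and it was at -6.14 without the cells that held a proliferation UMI. Postn (periostin) rose from 946 and 1250 to 1830 and 2450 CPM and Aspn (asporin) from 373 and 480 to 1050 and 2250. Tnc stood at 292 and 112 CPM in AD and 18.0 and 58.3 in AD_ABR, with an adjusted p = 0.0929. Of 40 matrix proteases and inhibitors 7 rose, among them Mmp2 (306 and 355 to 756 and 899 CPM) and Timp2, and 5 fell, among them Timp1, a metalloproteinase inhibitor of injured tissue (2510 and 1840 to 623 and 427 CPM) and Adam12. Without AD replicate 1 the matricellular and protease genes that rose numbered 1 and 6; they numbered 4 and 4 without AD_ABR replicate 2. Among cells without a proliferation UMI edgeR called 1 matricellular gene higher and 2 lower of 23, and none higher and 4 lower of 36 protease and inhibitor genes (8 higher at an unadjusted p under 0.05). Postn, Aspn and Mmp2 did not pass there (adjusted p = 0.0689, 0.0839 and 0.059), and Timp1 did. In the other stromal cells Spp1 stood at 856 and 147 CPM in AD and 17.7 and 11.4 in AD_ABR. Timp1 stood there at 1850 and 561 against 409 and 313, and Adam12 at 34.1 and 22.7 against 4.97 and 8.18. Their changes did not pass there (edgeR adjusted p = 0.0861, 0.193 and 0.052). Nor did the difference between the populations (adjusted p = 0.693, 0.307 and 0.233), which passed for Postn (1.42, adjusted p = 0.0131). The leukocytes of AD held 956 CPM of Spp1 and those of AD_ABR 133, and 61.4 and 12.5 of Timp1, and the part of leukocyte RNA in the Spp1 change was not tested.

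Sterol and fatty acid synthesis genes, which the transcription factor SREBP drives when cells need membrane lipid, fell. Of 27 tested 15 fell and none rose (edgeR, adjusted p under 0.05), and the median was -1.22 on the log2 scale. Sqle, squalene epoxidase, went from 26.8 and 21.6 CPM to 6.53 and 3.71, a log2 fold change of -2.20 (SE 0.283, adjusted p = 0.00717). Hmgcs1, which makes the substrate of the committed step of cholesterol synthesis, went from 89.8 and 72.2 to 34.4 and 26.7, and Scd2, a fatty acid desaturase, from 168 and 125 to 67.3 and 60.9. The count was 8 without AD replicate 1 and 9 without AD_ABR replicate 2. Without cells that held a proliferation UMI 7 of 26 fell. In the other stromal cells edgeR called none of 26, with 13 lower at an unadjusted p under 0.05, and DESeq2 called 8, all lower.

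Growth factor pathways gave smaller counts. Over all genes 6.95% rose and 8.46% fell. Of the Wnt list 11.1% rose. The S100 list (7.69% rose) and the Notch and YAP list (4.35% fell) lay near or under the shares over all genes. Of 33 TGF-beta genes 7 rose and 5 fell: the ligand gene Inhba (activin A) went from 278 and 127 CPM to 18.0 and 15.4, Tgfb1 fell by 1.02 and Tgfb2 by 0.70 on the log2 scale, and Tgfb3 rose by 0.76 and the target gene Ccn2 by 1.20. Of these genes, 3 rose and 4 fell without AD replicate 1, 4 rose and 2 fell without AD_ABR replicate 1, and 3 rose and 2 fell without AD_ABR replicate 2. Among cells without a proliferation UMI edgeR called none of the 33 higher and 2 lower (5 higher and 11 lower at an unadjusted p under 0.05, median -0.10 against 0.15). Of 45 Wnt genes 5 rose and none fell, among them the ligand genes Wnt9a and Wnt16 and the Dickkopf family gene Dkk3, and 1 rose without AD replicate 1. Of 26 BMP and GDF genes 4 rose and 1 fell, of 34 IGF, FGF and PDGF genes 6 rose and 1 fell, and of 23 Notch and YAP targets 1 fell, Ankrd1 at a log2 fold change of -2.85. The Wnt, BMP and IGF lists each had 1 gene higher among cells without a proliferation UMI, with 1, 2 and 2 lower. Of 13 S100 genes and receptors 1 rose, the receptor gene Tlr4 at a log2 fold change of 1.36; S100a6, a calcium-binding protein of dividing and stressed cells, stood at 2290, 2540, 1850 and 2140 CPM and S100a4 at 143, 166, 117 and 118, and neither passed.

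Some interferon and complement genes rose. Of 30 interferon response genes 9 rose and none fell, among them B2m (347 and 416 to 708 and 739 CPM), a subunit of MHC class I, Bst2 and Stat2. That became 3 genes without AD replicate 1, 15 without AD replicate 2, 5 without AD_ABR replicate 1 and 4 without AD_ABR replicate 2. Of 21 complement genes 7 rose, among them Serping1, the C1 inhibitor (338 and 571 to 1360 and 1050 CPM), and without AD replicate 1 the count was 3. In the cells without a proliferation UMI, edgeR called none of 30 and none of 18, with 4 and 5 higher at an unadjusted p under 0.05. Of 18 glucocorticoid response genes 7 rose and 1 fell, led by Klf15, Zbtb16 and Tsc22d3 (46.9 and 55.0 to 166 and 268 CPM). That count was 1 without AD replicate 1 and 1 without AD_ABR replicate 2, and 2 in the cells without a proliferation UMI, Tsc22d3 and Fkbp5.

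Genes of secretion and energy supply that passed were mostly lower in AD_ABR. Over all genes 6.95% rose and 8.46% fell. Among the lists below, the integrin genes (7.69% rose) and the other collagens (5.88% rose) lay near those shares. Of 28 secretory pathway genes 8 fell and 1 rose, of 24 glycolysis and hypoxia genes 6 fell and 1 rose, of 27 oxidative stress defence genes 7 fell and 2 rose, and of 27 oxidative phosphorylation genes 4 fell. The falls in cells without a proliferation UMI numbered 1, 2, 2 and 0 (edgeR; for the last, 1 lower at an unadjusted p under 0.05). Without AD_ABR replicate 2 the falls of the 4 lists numbered 1, 0, 2 and 0. Of 28 genes of the unfolded protein response and ER folding, 6 rose and 1 fell, and 2 rose without AD_ABR replicate 1 and 3 without AD_ABR replicate 2. The remaining lists, of basement membrane (5 of 16 rose), proteoglycans (5 of 23 rose, 1 fell), other collagens (1 of 17 rose), integrins (2 of 26 rose, 3 fell), nitric oxide and arginine genes (2 of 19 rose, 3 fell) and immediate early genes (3 of 32 fell), are given by their counts only. Each lost or gained calls by more than 1.5 times without at least 1 library. So did lists described above with named genes, among them the glucocorticoid, interferon, complement, matricellular and Wnt lists.

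**Figure D4:**
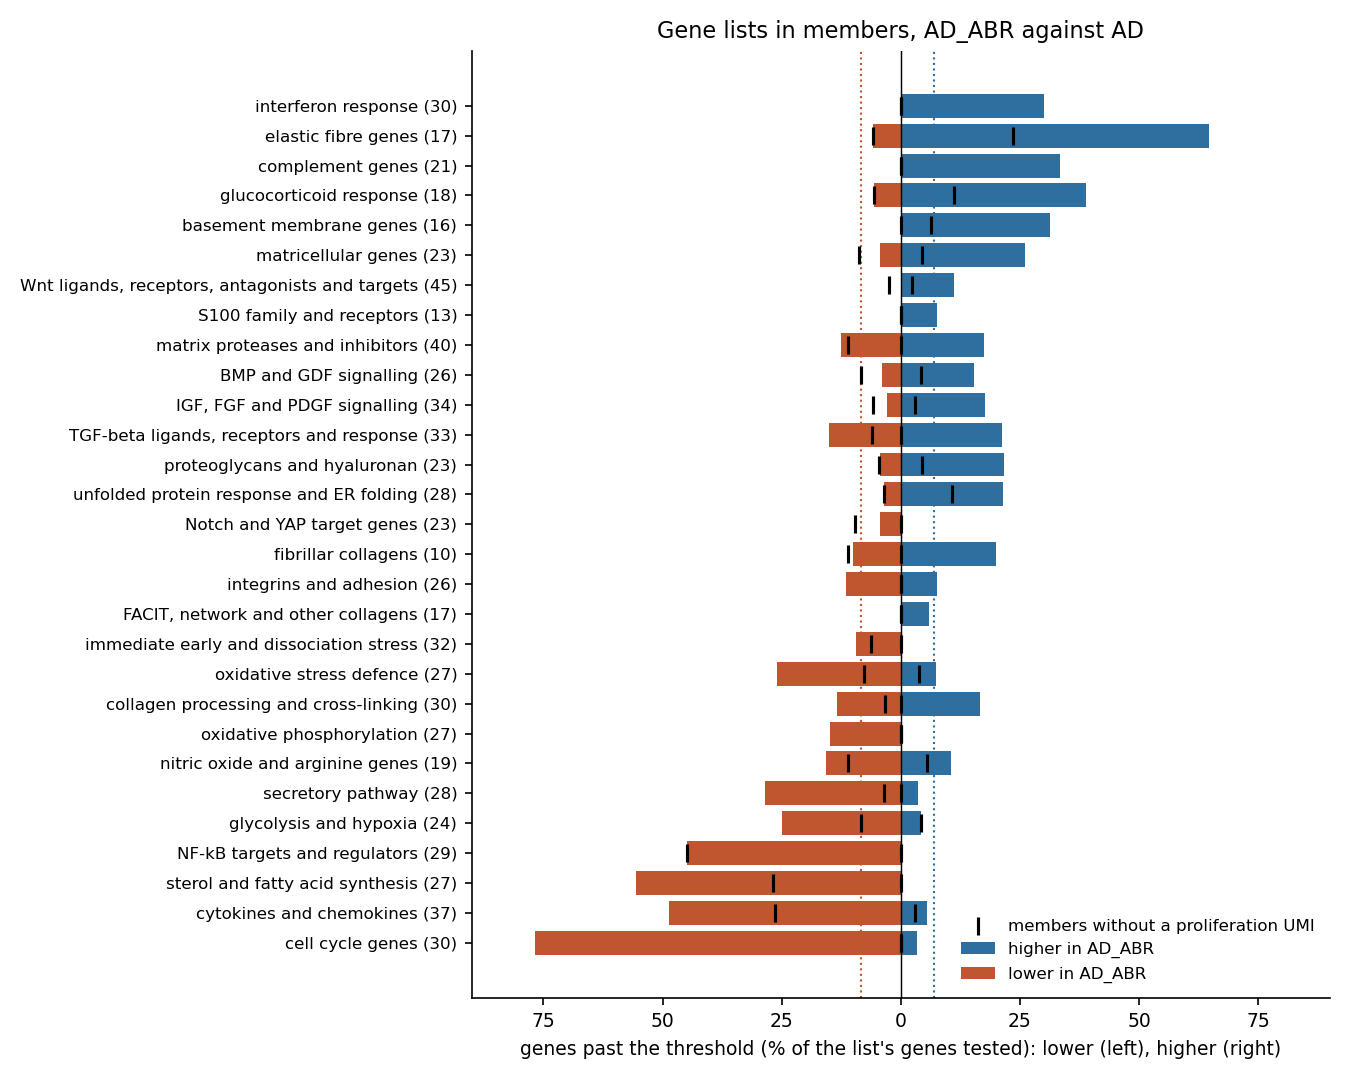
Percentage of each list's tested genes (number in brackets) that passed the threshold in the Cthrc1/Col8a1 cells, higher in AD_ABR to the right and lower to the left, ordered by median log2 fold change. Dotted lines give the percentage over all genes (6.95 higher, 8.46 lower), and black ticks the same count in cells with no proliferation UMI. The tick stays at the bar's end for the NF-kB list. It lies at 0 for the cell cycle list, which the choice of cells largely fixed.

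Whether the change differed between the Cthrc1/Col8a1 cells and the other stromal cells was tested by the interaction of cell population and treatment over 8 sums, with library as a term. In the other stromal cells alone, 135 of 15813 genes rose (0.854%) and 185 fell (1.17%), 320 in all (2.02%). The interaction passed for 1096 of 16193 genes (6.77%), 504 (3.11%) with a more positive change in the Cthrc1/Col8a1 cells and 592 (3.66%) with a more negative one. That number was 60 without AD_ABR replicate 1, 130 without AD_ABR replicate 2 and 217 where cells with a proliferation UMI were left out of both populations. Ptn, the heparin-binding growth factor pleiotrophin, stood at 20.2 and 25 CPM in AD and 74.8 and 114 in AD_ABR in the Cthrc1/Col8a1 cells, and at 64.1 and 63.8 against 31.4 and 39.0 in the others. Its difference of log2 fold changes was 2.86 (SE 0.148, adjusted p = 0.00026). Pamr1, a secreted peptidase-like protein, went from 23.9 and 33.9 to 127 and 268 CPM in the Cthrc1/Col8a1 cells, and stood between 44.1 and 71.4 in the others. Epyc, a small leucine-rich proteoglycan, rose from 30.8 and 40.5 to 87.6 and 105 CPM and fell in the others from 56.7 and 60.7 to 28.7 and 33.4. Tnxb (tenascin X) and Ifi27l2a had differences of 1.85 and 2.21. Fbn2 had a difference of 2.39, with 20.9, 70.6, 65.7 and 138 CPM in the Cthrc1/Col8a1 cells and 5.55, 18.2, 2.74 and 7.19 in the others, and its change within the Cthrc1/Col8a1 cells did not pass (adjusted p = 0.289).

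In the opposite direction stood Mthfd2, a mitochondrial enzyme of one-carbon metabolism. It fell from 69.8 and 50.6 to 30.1 and 28.5 CPM in the Cthrc1/Col8a1 cells and rose from 41.1 and 35.2 to 93.8 and 96.9 in the others, a difference of -2.40 (SE 0.143, adjusted p = 0.000363). The tubulin gene Tuba1b, the ADP/ATP carrier gene Slc25a5, the sterol-regulated Tmem97 and Creb3l1, a transcription factor of the secretory pathway, differed by -1.24, -1.17, -1.67 and -1.30, and each fell in the Cthrc1/Col8a1 cells and did not pass in the others. The homeobox gene Hoxa7 differed by -3.97, with 4.62, 37.0, 2.18 and 2.67 CPM against 0.83, 10.8, 8.47 and 10.8, so that its 2 AD libraries lay far apart. By list, the difference passed for 9 of 17 elastic fibre genes, all more positive in the Cthrc1/Col8a1 cells (among them Mfap4, Mfap2 and Fbln1), for 9 of 27 sterol genes and 6 of 30 cell cycle genes, all more negative, and for 1 of 29 NF-kB genes. Among cytokines it was more positive for 6 of 37, among them Cxcl2 and Cxcl10, which fell by 2.64 and 2.72 on the log2 scale in the other stromal cells and by 1.62 and 1.40 in the Cthrc1/Col8a1 cells.

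**Figure D5:**
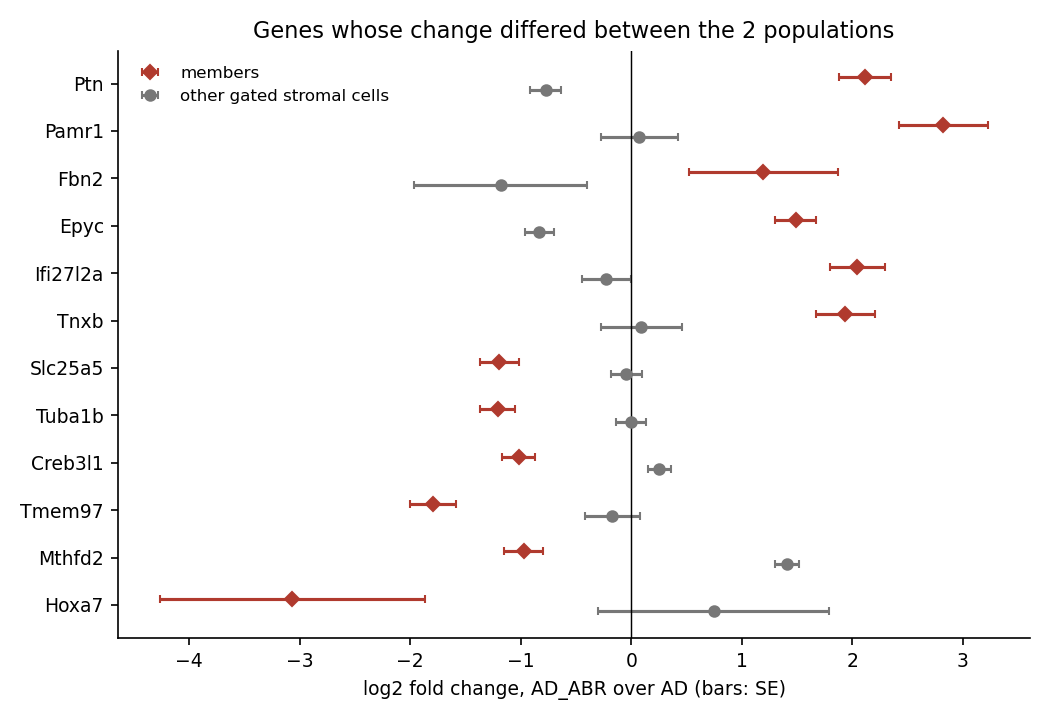
Log2 fold change of AD_ABR over AD in the Cthrc1/Col8a1 cells (red diamonds, members) and the other stromal cells (grey circles), with SE as bars, for the 12 named genes whose change differed between them. Ptn and Mthfd2 lie on opposite sides of 0 in the 2 populations, with differences of 2.86 and -2.40.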

How the data were processed

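Single-cell libraries (2 AD, 2 AD_ABR) were analysed from UMI counts per gene and barcode. Per the file headers the authors made the deposited counts with Cell Ranger 7.1.0; per the submitters' processing notes Cell Ranger 6.0, STAR, Seurat 4.0 and GRCm38 were used, so the versions differ between the sources. Counting may include introns, which is not given in the sources used here. Of 55357 gene identifiers 52081 matched GENCODE M21, and 79 symbols are shared by more than 1 identifier. Barcodes were kept and classed as the report states, and possible doublets were marked with Scrublet (in scanpy 1.11.5) at 0.8% per 1000 barcodes and kept in the main values.

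UMIs were summed per library and cell population and tested with edgeR 4.0.16 (TMM scaling, filterByExpr, robust quasi-likelihood fit, Benjamini-Hochberg over all genes, threshold 0.05). DESeq2 1.42.0 was an alternative. The difference between populations was the class by treatment term of a model with library over 8 sums. Genes the membership rule reads were given as values only. Summed counts of replicate libraries differed beyond sampling noise (chi-square per degree of freedom 32.9 in AD and 8.76 in AD_ABR). On simulated data the fit recovered 81% of 2-fold and 100% of 4-fold changes for the Cthrc1/Col8a1 cells (13627 genes, 11 false calls), and 90 and 100% for the difference (15835 genes, 11 false calls). Without unique animals stated, the libraries of a group may be technical repeats.

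Named genes were the 12 with the smallest p in each direction among those past the threshold with groups not overlapping in CPM, a mean of at least 10 CPM and a log2 fold change of at least 0.5, leaving out rule, mitochondrial, ribosomal protein and unnamed genes. Up to 6 were taken in each direction for the difference, 20 by ratio over the other stromal cells (5 CPM added, a UMI in at least 20% of cells), and the genes of fixed lists that passed or define them. The Cthrc1/Col8a1 cells, the 29 gene lists and the marker lists were chosen with earlier results of these data known. Promoters are from RefSeq, GRCm38.p6. Python 3.11.15, scipy 1.17.1 and R 4.3.3 were used.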

Additional observations from a re-analysis of the deposited data

Results flagged for a closer look

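The change between AD_ABR and AD differed between the Cthrc1/Col8a1 cells and the other stromal cells, by the interaction test of edgeR, for 1096 genes. Among the named ones the difference of log2 fold changes was 2.86 for Ptn, 2.68 for Pamr1, 2.31 for Epyc, 2.21 for Ifi27l2a, 2.39 for Fbn2 and 1.85 for Tnxb. It was -2.40 for Mthfd2, -3.97 for Hoxa7, -1.30 for Creb3l1, -1.24 for Tuba1b, -1.67 for Tmem97 and -1.17 for Slc25a5. Ptn, Epyc and Mthfd2 changed in opposite directions in fitted value, with log2 fold changes of 2.12, 1.49 and -0.97 in the Cthrc1/Col8a1 cells and of -0.77, -0.83 and 1.41 in the other stromal cells; of these 6, all but Ptn in the other stromal cells (adjusted p = 0.0548) passed the threshold. In cells without a proliferation UMI, Mthfd2 stood at -0.22 (adjusted p = 0.526) and Tuba1b at -0.05 (adjusted p = 0.911) within the Cthrc1/Col8a1 cells.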

How the results depend on the processing

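In the Cthrc1/Col8a1 cells the 2141 calls became 3571 without the filter on low counts (median log2 fold change of all genes -0.17), 849 with cells thinned to 3000 UMIs, and 734 to 2560 with 1 library left out; cell subsets added after seeing the data gave 341 (no proliferation UMI) and 1 (led by Col8a1). In the other stromal cells the 320 calls became 1399 by DESeq2, 2927 without the filter, 847 when thinned, and 0 to 3743 with 1 library left out (0 without AD_ABR replicate 2, with 1978 at an unadjusted p under 0.05; 3743 without AD replicate 2, 1502 without AD replicate 1 and 12 without AD_ABR replicate 1). The 1096 differences became 570 by DESeq2, 2448 without the filter, 602 when thinned, 1732 with only cells led by Cthrc1, 217 without cells with a proliferation UMI, and 60 to 937 with 1 library left out. The cause of these shifts was not tested. With a replicate block the calls were 2663 and, in the other stromal cells, 1996. The labels do not say whether libraries of the same replicate number share more than the number. Their deviations correlated at 0.105 over 8303 genes, and 2 pairs cannot show whether a batch was shared. Of 376 repeats of the 24 named changes, 349 kept direction and threshold, 26 lost the threshold and 1 reversed. In cells led by Col8a1 no named change held: 23 lost the threshold, and Nox4 reversed, at -0.123 (adjusted p = 0.903 by edgeR). In cells without a proliferation UMI 13 kept the threshold and 3 lost it, and the remaining named genes were not tested there. Repeats in which a gene was not tested are not in the total. Of 132 repeats of the named differences 131 kept both and 1 lost the threshold. The 3.2-fold share was 2.35 to 3.59 over its alternatives. The smallest class, 233 cells in AD_ABR replicate 1, limits depth.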
